A study of Homo sapiens with 6 samples.

Results

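The genes of the insulin-like growth factor (IGF) system described here were the 7 IGF-binding proteins IGFBP1 to IGFBP7, the receptors IGF1R and IGF2R, and the ligand IGF2, 10 of the 60448 genes in the deposited tables. They were taken by gene name from both full tables, and each name matched 1 gene. IGFBP2 came into view because of its rise in the knockdown, so its difference between knockdown and wild type is given as a description without a test. The other 9 were taken as its relatives and were not chosen one by one on their values, but earlier results of these data were known when the set was drawn up.

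The cells were RPE1, an immortalised human line from the retinal pigment epithelium, and the assay was 4sU-seq, which reads newly made RNA. Cells in this assay take up 4-thiouridine, and the RNA that carries it is collected and sequenced. The 3 groups had 2 libraries each: NuMA (TDIF)-KD cells given doxycycline to induce the knockdown and then treated with H2O2, wild type cells without doxycycline treated with H2O2, and wild type cells with neither. Doxycycline and the loss of NuMA therefore formed 1 factor and cannot be told apart. The labels give no H2O2 dose, no times and no statement that the libraries came from separate cultures, nor do they say whether the knockdown line is 1 clone. The p-values therefore reflect library-to-library spread alone, and that spread may be purely technical. In bulk RNA, fewer cells of a type and less RNA per cell cannot be told apart.

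The tables hold 1 value per gene and group, so no value per library can be shown. Mean counts worked out from them summed to 16827872 per library in NuMA-KD H2O2, 18341732 in WT H2O2 and 14786613 in WT untreated cells. NUMA1, the knockdown's target on chromosome 11, had mean counts of 933.5 in NuMA-KD H2O2, 1571 in WT H2O2 and 1168 in WT untreated cells, and was 1.37-fold lower in the knockdown than in treated wild type cells relative to the median gene. Of 6 markers of differentiated retinal pigment epithelium, RPE65, TYR and RLBP1 had at most 6 mean counts in each group. MITF had 583.5, 660.5 and 674 in NuMA-KD H2O2, WT H2O2 and WT untreated cells, OTX2 160.5, 166.5 and 387, and BEST1 33.5, 63 and 4.5. The epithelial keratin KRT8 had 22186, 35005 and 13889.5 in the same groups. Of the same epithelial list, CDH1 had at most 12 and EPCAM at most 2.5 in each group. The epithelial list of 6 genes summed to 29165, 43587 and 19577 mean counts and the fibroblast list of 10 genes to 8926.5, 10965.5 and 5488; in both lists 2 genes rose after H2O2 and 2 fell in the knockdown, and 1 fibroblast gene fell after H2O2. Neuronal markers summed to 394.5, 677.5 and 551, with 2 higher after H2O2 and 1 lower in the knockdown, and the 6 retinal pigment epithelium markers to 782, 898 and 1066.5, with BEST1 higher and OTX2 lower after H2O2. The hepatocyte markers ALB, APOA1, TTR and SERPINA1 summed to 15, 13.5 and 19 mean counts in the same groups. Mitochondrial genes took 10.99%, 6.35% and 14.3% of the counts, and the part of these genes and of the marker lists in the results below was not tested.

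The deposited log2 fold changes carry no scaling for depth: their median over genes with 50 or more mean counts was -0.29 in the knockdown comparison and 0.29 in the H2O2 comparison. Changes below are on the log2 scale after subtracting that median, and each ± is a standard error worked back from the deposited p-value. A gene is said to have risen or fallen where its adjusted p was under 0.05 in 2 tests, the authors' own and a normal test of the centred change with Benjamini-Hochberg adjustment over the whole table. By this rule 26.2% of tested genes moved in either direction after H2O2 and 21.2% in the knockdown. Because the authors' test is not scaled for depth, the rule leaves out falls after H2O2 and rises in the knockdown. The centred test alone called 16.6% higher and 15.8% lower after H2O2, and 15.5% and 14.4% in the knockdown. Both tests together called 16.6% and 9.60% after H2O2, and 6.81% and 14.4% in the knockdown. The treated wild type libraries stand in both comparisons, as the baseline of one and the treated side of the other, so the changes of a gene in the 2 comparisons are not independent. Levels compared between genes are the deposited signal per gene length, put on the scale of the H2O2 table.

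IGF1 and IGF2 are secreted peptides that act through IGF1R, a receptor tyrosine kinase that feeds the PI3K and AKT pathway. IGF2R, also the cation-independent mannose 6-phosphate receptor, carries lysosomal enzymes and removes IGF2 without passing on a kinase signal. IGFBP1 to IGFBP6 bind IGFs tightly outside the cell and limit or prolong their action, and proteases release the ligand by cutting them. IGFBP7 shares their amino-terminal domain but binds IGFs weakly.

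In wild type cells treated with H2O2, the newly made RNAs of 4 binding proteins rose: IGFBP5 by 16.5-fold, IGFBP7 by 3.84-fold, IGFBP3 by 2.10-fold and IGFBP2 by 2.07-fold relative to the median gene. In treated knockdown cells, IGFBP2 was a further 4.62-fold above treated wild type cells, whereas IGFBP3, IGFBP5, IGFBP6 and IGFBP7 lay within 1.12-fold of the median gene's change. IGF1R and IGF2R passed neither comparison in both tests. IGF2 and IGFBP1 had hardly any reads, and IGF1, the other ligand, had none in any group.

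**Figure D1:**
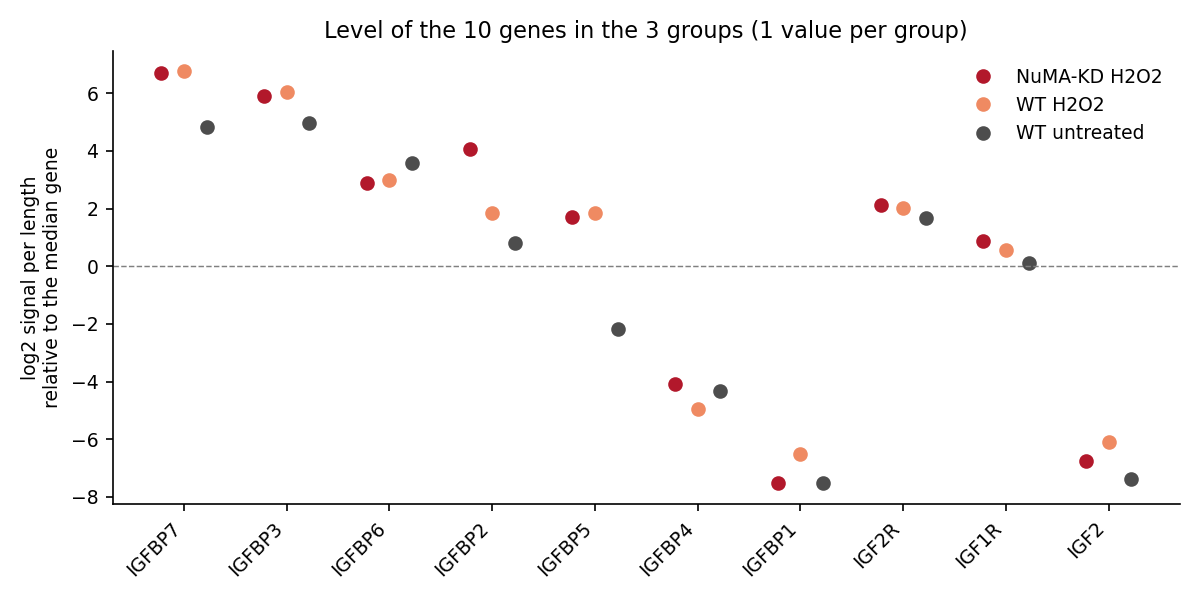
Level of each of the 10 genes as log2 signal per gene length relative to the median gene, with 1 point per group (NuMA-KD H2O2, WT H2O2, WT untreated) and no error bar because the tables hold 1 value per group. IGFBP7 and IGFBP3 lie highest, IGFBP5 is at 1.70, 1.86 and -2.19 in those groups, and IGFBP2 is at 4.05, 1.85 and 0.79; the lowest points, of IGFBP1 and IGF2, include the count of 1 that the authors added.

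The ligands were almost absent. IGF2, an imprinted growth factor of fetal tissues, is encoded at 2129112 to 2149603 of chromosome 11 (hg38, on the minus strand). It had mean counts of 6 in NuMA-KD H2O2, 12.5 in WT H2O2 and 3.5 in WT untreated cells. The 95% Poisson intervals of its counts summed over both libraries, which cover counting error only, were 6.20 to 21.0, 16.2 to 36.9 and 2.81 to 14.4. These intervals are on raw counts and are not scaled for depth, which was 18341732 mean counts per library in WT H2O2 and 14786613 in WT untreated cells. Whether they overlap therefore does not show a difference in IGF2. The change in IGF2 after H2O2 was 1.29 ± 0.91 (standard error; adjusted p = 0.293 after centring) and passed neither test. The imprinted neighbour H19 had 0, 0 and 4 mean counts in NuMA-KD H2O2, WT H2O2 and WT untreated cells. IGF1 and insulin (INS) were at 0 in all 3 groups.

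The receptors were well covered. IGF1R, the signalling receptor, is spread over 316 kb of chromosome 15 (hg38, 98648539 to 98964530, plus strand). Its mean counts, not scaled for depth, were 1746 in NuMA-KD H2O2, 1712 in WT H2O2 and 1034 in WT untreated cells. Relative to the median gene its log2 level was 0.88, 0.56 and 0.13 in these groups. After H2O2 its change was 0.44 ± 0.21 (adjusted p = 0.0940 after centring). It was called higher in the authors' deposited table (log2 fold change of 0.73, adjusted p = 0.00216) and not after centring. In the knockdown it stood at 0.32 ± 0.13, which was called after centring (adjusted p = 0.0384), as 15.5% of tested genes were on the higher side, and not in the authors' deposited table (log2 fold change of 0.03, adjusted p = 0.902). Scaling by the recovered total counts gave 0.15 (adjusted p = 0.404), so that the centred call was lost.

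IGF2R lies on chromosome 6 from 159969099 to 160113507 (hg38, plus strand). Its mean counts were 3380.5 in NuMA-KD H2O2, 3899.5 in WT H2O2 and 2501 in WT untreated cells. The change after H2O2 was 0.35 ± 0.19 (adjusted p = 0.162 after centring), while the authors' deposited table called it higher (log2 fold change of 0.64, adjusted p = 0.00412). In the knockdown it stood at 0.09 ± 0.09, and its sign turned with the scaling, to -0.21 as deposited. The lengths found for IGF1R and IGF2R matched no annotated mean transcript length, so their true counts may differ from those given by a factor that is the same in each group. Per length, IGF2R had the higher signal of these 2 receptors in each group, with 63.5 against 27.1 in NuMA-KD H2O2, 73.2 against 26.6 in WT H2O2 and 47.0 against 16.1 in WT untreated cells. INSR, the insulin receptor, which can pair with IGF1R, had 187, 216 and 108 mean counts in the same groups and passed neither comparison in both tests. After H2O2 its change was 0.70 ± 0.29 (adjusted p = 0.0509 after centring), while the authors' deposited table called it higher (adjusted p = 0.00315). In the knockdown INSR stood at 0.08 ± 0.21.

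Binding protein levels spanned a wide range. Per length, IGFBP7 had a signal of 1524 in NuMA-KD H2O2, 1945 in WT H2O2 and 414 in WT untreated cells, and IGFBP3 had 870.4, 1181 and 460. In untreated cells IGFBP3 stood above IGFBP7, and in both treated groups IGFBP7 stood above IGFBP3. At 99.8%, 99.9% and 99.1% of detected genes below it, IGFBP7 was among the most strongly transcribed genes in each group. IGFBP6 came next in both wild type groups, with a signal of 142 in WT H2O2 and 175 in WT untreated cells. In the knockdown its signal of 109 was below the 244 of IGFBP2. IGFBP2 and IGFBP5 were nearly level in treated wild type cells at 64.6 and 65.4. With 1 value per group, no spread over libraries is known for these levels.

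IGFBP5, which binds extracellular matrix as well as IGFs, made the steepest move. It had mean counts of 2659.5 in WT H2O2 and 130.5 in WT untreated cells, a rise of 4.05 ± 0.22 relative to the median gene (adjusted p = 4.86e-71 after centring). Among 11218 protein-coding genes tested in both comparisons and with at least 50 mean counts in a group, 33 had a rise after H2O2 at least that large, IGFBP5 included. IGFBP7, a matrix-associated protein encoded on chromosome 4 from 57030773 to 57110385 (hg38, minus strand), had 39256.5 mean counts in WT H2O2 and 8352.5 in WT untreated cells and rose by 1.94 ± 0.20 (adjusted p = 7.01e-20 after centring). Its span overlaps that of POLR2B, on the opposite strand, which had 1079 and 791 mean counts in the same groups. The strand setting of the counting is not given in the sources used here.

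IGFBP3, the main carrier of IGFs in blood and a p53 target, had 22649 mean counts in WT H2O2 and 8811 in WT untreated cells. It rose by 1.07 ± 0.20 (adjusted p = 1.46e-06 after centring). IGFBP2, which carries an integrin-binding motif and favours IGF2, had 1671 mean counts in WT H2O2 and 658.5 in WT untreated cells and rose by 1.05 ± 0.22 (adjusted p = 2.63e-05 after centring). IGFBP6, a binding protein with a preference for IGF2 encoded on chromosome 12 from 53097436 to 53102345 (hg38, plus strand), had 2116.5 and 2599.5 mean counts in the same groups. Its change was -0.59 ± 0.22, called after centring (adjusted p = 0.0233), as 15.8% of tested genes were on the lower side, and not in the authors' deposited table (log2 fold change of -0.30, adjusted p = 0.291). With the fold changes corrected for gene span, an alternative chosen after seeing the data, it was -0.15 (adjusted p = 0.643). IGFBP4, which restrains IGF action and is encoded on chromosome 17 from 40443461 to 40457731 (hg38, plus strand), had only 20 and 25.5 mean counts, with a change of -0.63 ± 0.56 that passed neither test. IGFBP1, made mainly by liver and decidua, had 4 and 1 mean counts, and the authors gave it no adjusted p.

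In all, 4 of 9 tested members rose after H2O2, where 16.6% of 18522 tested genes did. None fell in both tests, where 9.60% of the tested genes did. The centred normal test alone called IGFBP6 lower (adjusted p = 0.0233), as it did 15.8% of the tested genes. At an unadjusted p under 0.05, 1 member was lower in the centred normal test (IGFBP6) and 0 in the authors' deposited table. The median change of the 9 tested members was 1.05, beside 0.05 over all tested genes. The authors' deposited table alone called 6 members higher, IGF1R and IGF2R being the other two, where 26.7% of the tested genes were. The members passed a filter on low values set by the authors, which IGFBP1 did not, and 7 of the 10 had at least 50 mean counts in a group.

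**Figure D2:**
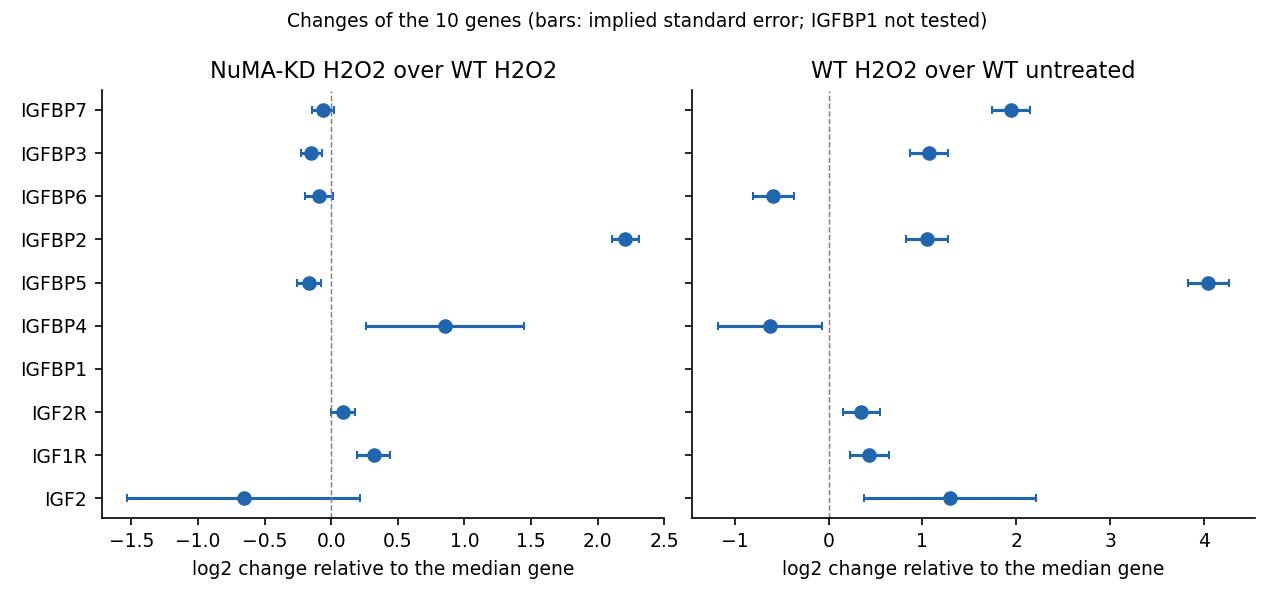
Change of each gene on the log2 scale relative to the median gene, NuMA-KD H2O2 over WT H2O2 on the left and WT H2O2 over WT untreated on the right, with bars for the implied standard error and no point for IGFBP1, which was not tested. On the left IGFBP2 is at 2.21, and the other members with at least 50 mean counts lie between -0.17 and 0.32, IGF1R being the highest of them; on the right IGFBP5, at 4.05, lies farthest out, and IGFBP7, IGFBP3 and IGFBP2 are at 1.94, 1.07 and 1.05.

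IGFBP2 stood apart from its relatives in the knockdown, which follows from its choice for that rise. IGFBP2 had mean counts of 6312.5 in NuMA-KD H2O2, 1671 in WT H2O2 and 658.5 in WT untreated cells. Relative to the median gene it stood 2.21 ± 0.10 above treated wild type cells. This value chose the gene and no test is attached to it. Of the 11218 protein-coding genes above, 7 had a value at least as high, IGFBP2 included. Under the other scalings and filters tried it lay between 1.92 and 2.25.

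The other 8 tested members did not pass both tests in the knockdown, where 6.81% of 18266 tested genes rose and 14.4% fell. IGFBP3 had 16689.5 mean counts in NuMA-KD H2O2 and 22649 in WT H2O2, a change of -0.15 ± 0.08 (adjusted p = 0.160 after centring). IGFBP5 had 1937 and 2659.5 mean counts in these groups and stood at -0.17 ± 0.09 (adjusted p = 0.184 after centring). For IGFBP7 the mean counts were 30773 in NuMA-KD H2O2 and 39256.5 in WT H2O2, a change of -0.06 ± 0.08. IGFBP6 had 1624.5 in NuMA-KD H2O2 and 2116.5 in WT H2O2, a change of -0.09 ± 0.11. All 4 had fewer mean counts in the knockdown, by a factor close to that of the median gene.

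Whether these 4 binding proteins are called lower depends on the scaling. They were all called in the authors' deposited table, which is not scaled for depth and in which 28.0% of the tested genes were called lower, with log2 fold changes of -0.44 for IGFBP3, -0.46 for IGFBP5, -0.38 for IGFBP6 and -0.35 for IGFBP7. Scaling by the recovered total counts left 3 of them called, IGFBP3, IGFBP5 and IGFBP7, at -0.32, -0.33 and -0.23. Centring on the median gene called 0 of them, and IGF1R was the 1 member called by that test alone, also at an unadjusted p under 0.05. At an unadjusted p under 0.05 the authors' deposited table had 5 of the 8, these 4 and IGF2R. IGFBP4, with 30 mean counts in NuMA-KD H2O2 and 20 in WT H2O2, stood at 0.85 ± 0.59. IGFBP1 had 1 and 4 mean counts and IGF2 had 6 and 12.5, too few to tell a difference at this depth. The median over the 8 was -0.08, beside 0.02 over all tested genes.

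Set against untreated wild type cells, the treated knockdown cells had a 9.54-fold higher IGFBP2 signal relative to the median gene, a log2 difference of 3.25. IGFBP5 was 14.7-fold higher (log2 difference of 3.88) and IGFBP7 3.67-fold higher (1.88). IGFBP3 was 1.89-fold higher, IGF1R 1.68-fold higher and IGF2R 1.35-fold higher, while IGFBP6 was 1.61-fold lower. These groups share no deposited table, so the differences have no test. Apart from a slightly different median gene, each is the sum of the changes in the 2 comparisons above.

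**Figure D3:**
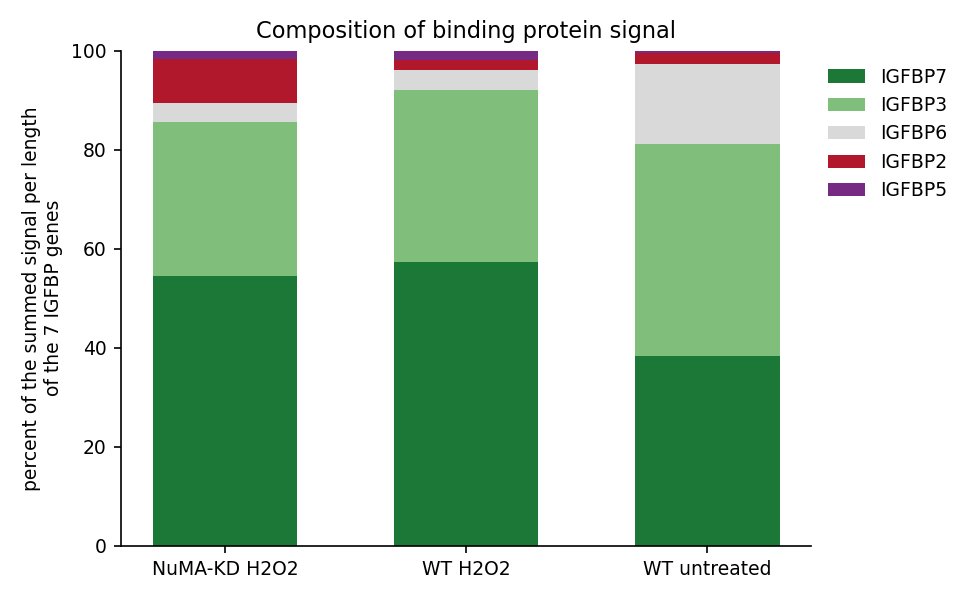
Percent of the summed signal per gene length of the 7 IGFBP genes held by IGFBP7, IGFBP3, IGFBP6, IGFBP2 and IGFBP5 in NuMA-KD H2O2, WT H2O2 and WT untreated cells, 1 value per group. IGFBP2 holds 8.73%, 1.90% and 2.37%, IGFBP6 holds 3.90%, 4.18% and 16.2%; IGFBP4 and IGFBP1 are too small to draw.

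A share within one group does not depend on scaling between libraries. Of the summed signal per length of the 7 binding protein genes, IGFBP2 made up 8.73% in NuMA-KD H2O2, 1.90% in WT H2O2 and 2.37% in WT untreated cells. IGFBP7 made up 54.5%, 57.2% and 38.4% in the same groups and IGFBP3 31.1%, 34.8% and 42.7%. IGFBP5 took 1.70%, 1.92% and 0.2999%, and IGFBP6 took 3.90%, 4.18% and 16.2%. IGFBP4 and IGFBP1 were each under 0.1% in every group. Among those above 1%, IGFBP2 was the member whose share was higher in the treated knockdown than in either wild type group. That follows from the rise that chose IGFBP2 and is no separate support for it. The share of IGFBP6 was lower in both treated groups, where the sum it is taken from was larger. This sum was 2797 in NuMA-KD H2O2, 3399 in WT H2O2 and 1077 in WT untreated cells, not scaled for depth. The signal of IGFBP6 itself was 109, 142 and 175 in the same groups. Together the 10 genes took 0.371% of all counts in NuMA-KD H2O2, 0.403% in WT H2O2 and 0.163% in WT untreated cells.

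IGFBP2 and IGFBP5 are neighbours. IGFBP2 lies on chromosome 2 from 216632828 to 216664436 on the plus strand and IGFBP5 from 216672105 to 216695525 on the minus strand (hg38), so that their ends face each other across 7.67 kb. After H2O2 their changes differed in size, at 1.05 for IGFBP2 and 4.05 for IGFBP5. In the knockdown IGFBP2 stood at 2.21 and IGFBP5 at -0.17, a difference that follows from the choice of IGFBP2 for its rise there. Within 200 kb of the pair, 2 other genes had at least 50 mean counts in a group. The nearer was RPL37A, a ribosomal protein gene 53.6 kb from IGFBP2, which rose by 0.60 ± 0.08 in the knockdown and fell by 1.12 ± 0.20 after H2O2. SMARCAL1, a DNA annealing helicase gene, stood at 0.22 ± 0.15 and 0.17 ± 0.24 and passed neither test.

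**Figure D4:**
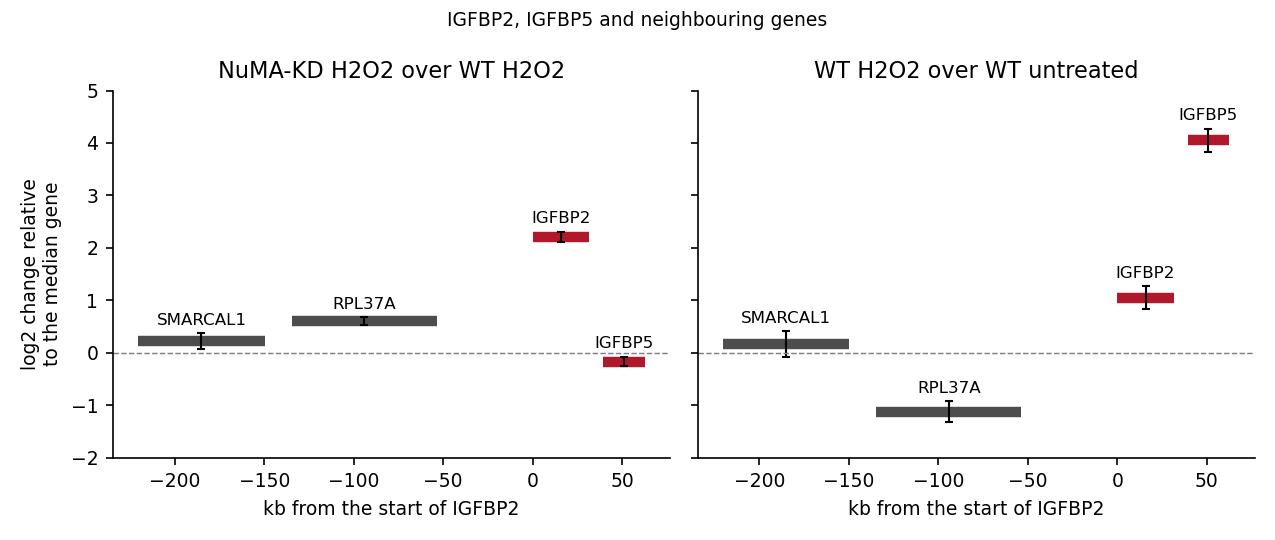
Change on the log2 scale relative to the median gene of IGFBP2, IGFBP5 and the 2 other genes within 200 kb with at least 50 mean counts, drawn as bars over their span in kb from the start of IGFBP2, with the implied standard error as a vertical line; NuMA-KD H2O2 over WT H2O2 is on the left and WT H2O2 over WT untreated on the right. IGFBP2 stands highest on the left at 2.21, the value for which it was chosen, and IGFBP5 highest on the right at 4.05.

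IGFBP1 and IGFBP3 form a like pair on chromosome 7, 18.6 kb apart, IGFBP1 from 45888357 to 45893668 on the plus strand and IGFBP3 from 45912245 to 45921874 on the minus strand (hg38). Here 1 gene of the pair was nearly silent, with 1, 4 and 1 mean counts in NuMA-KD H2O2, WT H2O2 and WT untreated cells, while the other was among the strongest genes of the set. The pseudogenes SEPT7P2 and RP11-638I8.1 were the only other genes within 200 kb with at least 50 mean counts. SEPT7P2, of which a functional parent gene exists elsewhere, fell by 1.13 ± 0.31 in the knockdown, and RP11-638I8.1 fell by 1.96 ± 0.55 after H2O2; reads of pseudogenes can come from their parent genes.

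The promoters of IGFBP2, IGFBP5 and IGFBP3 are shown because these genes rose together after H2O2 while IGFBP2 alone was far above the median gene in the knockdown. Each is 300 bases from RefSeq (GRCh38.p14), 250 before and 50 after the transcript start, written 5′ to 3′ on the strand of the gene, at chr2:216633170-216633469 (plus strand), chr2:216695500-216695799 (minus strand) and chr7:45921223-45921522 (minus strand). RefSeq gives 3 starts for IGFBP2, and the window shown is the one nearest to the start of the annotation's principal transcript, 25 bases away. Capitals mark the motifs searched for, on both strands. They were TATAAA of the TATA box and GGGCGG of the GC box, which reads CCGCCC on the opposite strand. The E-box motif was CACGTG and the AP-1 motif was TGANTCA. The core of insulin response sequences was CAAAACA and the FOXO motif was GTAAACA.
IGFBP2: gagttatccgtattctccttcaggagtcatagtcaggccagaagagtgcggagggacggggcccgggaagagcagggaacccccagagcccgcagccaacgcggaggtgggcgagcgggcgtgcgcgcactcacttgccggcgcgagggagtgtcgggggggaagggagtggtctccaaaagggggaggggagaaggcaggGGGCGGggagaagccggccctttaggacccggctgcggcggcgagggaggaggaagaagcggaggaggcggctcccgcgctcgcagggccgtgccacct
IGFBP5: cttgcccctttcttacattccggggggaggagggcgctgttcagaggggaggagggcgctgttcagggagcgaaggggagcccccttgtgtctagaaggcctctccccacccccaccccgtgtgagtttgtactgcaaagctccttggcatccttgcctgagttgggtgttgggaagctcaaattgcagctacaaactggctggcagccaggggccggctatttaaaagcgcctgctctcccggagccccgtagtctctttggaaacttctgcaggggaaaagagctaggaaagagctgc
IGFBP3: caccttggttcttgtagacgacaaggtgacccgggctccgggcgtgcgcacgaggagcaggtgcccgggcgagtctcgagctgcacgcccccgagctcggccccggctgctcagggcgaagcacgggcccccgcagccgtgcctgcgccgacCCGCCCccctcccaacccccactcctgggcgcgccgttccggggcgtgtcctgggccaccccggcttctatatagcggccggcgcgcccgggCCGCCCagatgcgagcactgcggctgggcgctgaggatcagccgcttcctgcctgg

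In these letters the GC box was found once for IGFBP2, 49 bases before the start, and at 2 places for IGFBP3, 98 and 6 bases before it. The IGFBP5 window held none of the 6 motifs. Of 35116 RefSeq windows of this length, 15786 held the GC box, and 11.5% held TATAAA, 7.26% CACGTG, 7.71% TGANTCA, 4.92% CAAAACA and 3.42% GTAAACA. RefSeq windows were found for 7 of the 10 members, 9 windows in all. Among the others, TATAAA was found for IGFBP4, 29 bases before its start, GTAAACA for IGFBP6, and CACGTG at 3 places for IGF2R. The GC box was also found for IGF1R, IGF2R, IGFBP4 and IGFBP6. The GC content was 70.0% for IGFBP2, 59.0% for IGFBP5 and 74.7% for IGFBP3, beside a median of 58.7% over all windows. A match of letters is a description and not a binding site.

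By distance over the changes in both comparisons, among the 11218 protein-coding genes above, the 5 genes most like IGFBP2 were ARID5A, FBXO2, TBC1D10C, SERPING1 and LRRN4CL, at distances of 0.19 to 0.49 on the log2 scale. ARID5A had 7470.5 mean counts in NuMA-KD H2O2, 2262.5 in WT H2O2 and 888.5 in WT untreated cells. The other 4 had at most 235 in any group. For IGFBP3 the 5 nearest genes, FARP1, KCTD18, MANEA, STYX and KIAA1522, lay within 0.01 to 0.03, so many genes share its pattern closely. This likeness rests on 3 group values.

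The remaining genes of the IGF pathway were described from lists by role. Among 49 tested genes that are no members, 15 rose and 5 fell after H2O2, and 1 rose and 13 fell in the knockdown. Called in either direction were 40.8% of them after H2O2 and 28.6% in the knockdown, beside 26.2% and 21.2% of all tested genes. Over all tested genes, 16.6% rose and 9.60% fell after H2O2, and 6.81% rose and 14.4% fell in the knockdown. The centred test alone called 15.5% of all tested genes higher in the knockdown and 15.8% lower after H2O2. The rule of 2 tests thus leaves out rises in the knockdown and falls after H2O2. The median change of these genes was 0.31 after H2O2 and 0.07 in the knockdown, beside 0.05 and 0.02 over all tested genes.

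**Figure D5:**
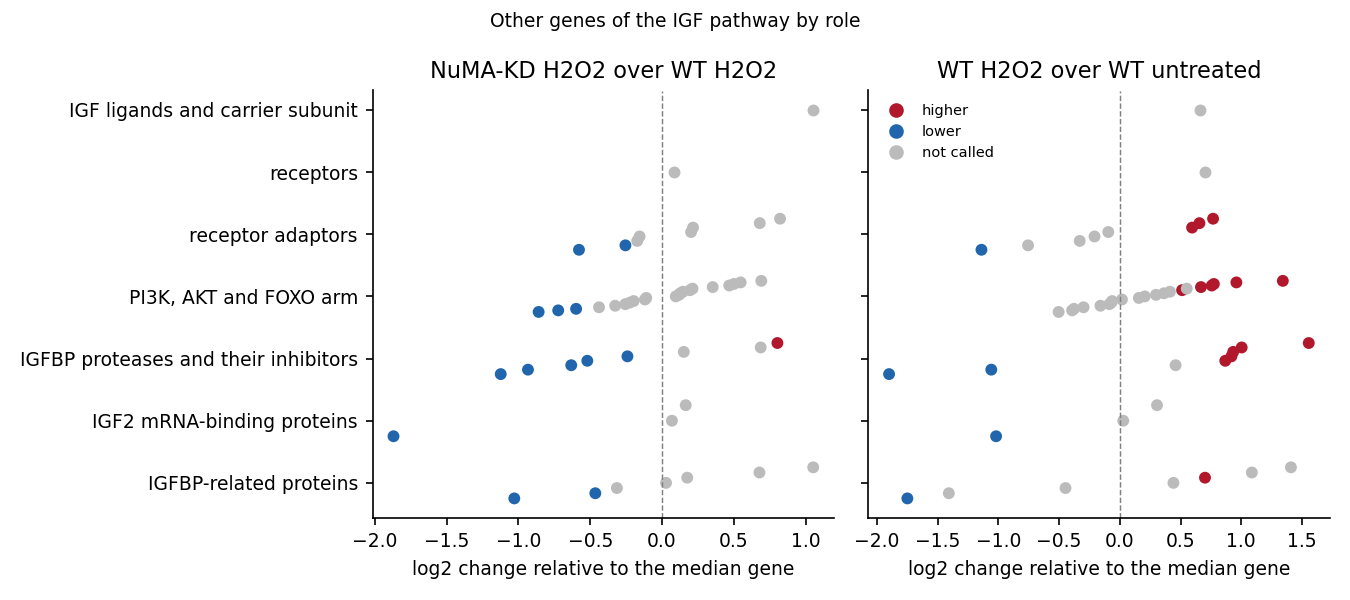
Change on the log2 scale relative to the median gene of each tested gene of 7 IGF pathway lists, members of the set left out, NuMA-KD H2O2 over WT H2O2 on the left and WT H2O2 over WT untreated on the right; colours mark genes that passed both tests. Of the proteases and their inhibitors, 5 genes are lower and 1 is higher on the left, and 5 are higher and 2 lower on the right.

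Of 8 tested proteases that cut binding proteins and inhibitors of them, 5 rose after H2O2 (PAPPA, STC1, HTRA1, ADAM9 and CTSD) and 2 fell (PAPPA2 and STC2). PAPPA, the metalloprotease that cuts IGFBP4, had 1105.5 mean counts in WT H2O2 and 306.5 in WT untreated cells and rose by 1.56 ± 0.23. ADAM9, a membrane protease, rose by 1.004 ± 0.20. PAPPA2, a related protease with 8.5 and 28 mean counts in WT H2O2 and WT untreated cells, fell by 1.90 ± 0.65.

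STC1 and STC2 encode stanniocalcins, which inhibit PAPPA. STC2 had 49413 mean counts in NuMA-KD H2O2, 34646 in WT H2O2 and 58996.5 in WT untreated cells. It rose by 0.80 ± 0.08 in the knockdown and fell by 1.06 ± 0.20 after H2O2. STC1 had 998.5, 2662 and 1150 mean counts in the same groups, and it fell by 1.12 ± 0.10 in the knockdown and rose by 0.92 ± 0.20 after H2O2. The other genes of this list lower in the knockdown were HTRA1, ADAM9, ADAM12 and CTSD, at changes of -0.24, -0.52, -0.93 and -0.63.

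Of 8 tested adaptors, IRS2, SHC1 and GRB2 rose after H2O2, by 0.77, 0.66 and 0.60. GRB14, an inhibitor of insulin receptor signalling, fell by 1.14 ± 0.31, with 84.5 mean counts in WT H2O2 and 153 in WT untreated cells. In the knockdown IRS1, a substrate of IGF1R, fell by 0.58 ± 0.15 and GRB2 by 0.25 ± 0.10. Of 21 tested genes of the PI3K, AKT and FOXO arm, 6 passed both tests after H2O2, each of them higher, where 16.6% of all tested genes rose. Among them, AKT1, a kinase of this arm, rose by 0.77 ± 0.20 and PIK3CA, a catalytic subunit of PI3K, by 0.76 ± 0.29. In the knockdown 3 of the 21 fell, a share close to the 14.4% of all tested genes; AKT1 stood at -0.60 and PIK3CA at -0.86.

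The IGF2 mRNA-binding proteins are cytoplasmic regulators of mRNA fate. IGF2BP3 had 65 mean counts in NuMA-KD H2O2, 294 in WT H2O2 and 194 in WT untreated cells, and fell by 1.87 ± 0.24 in the knockdown. IGF2BP1 fell by 1.02 ± 0.28 after H2O2. Among secreted proteins with an IGFBP-like domain, CTGF had 15435 mean counts in NuMA-KD H2O2, 38520.5 in WT H2O2 and 19361.5 in WT untreated cells. It fell by 1.03 ± 0.07 in the knockdown and rose by 0.70 ± 0.20 after H2O2. CYR61 fell by 0.46 ± 0.08 in the knockdown, and ESM1, with 11 and 32 mean counts in WT H2O2 and WT untreated cells, fell by 1.75 ± 0.59 after H2O2.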

How the data were processed

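Newly made RNA of 6 libraries in 3 groups was analysed, grouped by the labels. The submitters' processing notes list STAR 2.5, DESeq2, DESeq and hg38 without saying what each did; the counting tool, strand setting and annotation are not given in the sources used here. The authors deposited, per gene and group, a signal value pooled over libraries, and per comparison a log2 fold change and p-values; which program gave these is not stated. Values moved in steps of a mean count, raised by 1 and divided by gene length. Mean counts were recovered by finding a length that made all 3 values whole or 0.5-step counts (tolerance 1e-06); for 86.0% of 60448 genes this was the mean transcript length of GENCODE 29, in which 94.1% of the IDs were found. Coordinates are from GENCODE 29, same build. For IGFBP6, IGF1R, IGF2R and IGF2 the nearest fitting length was used. Where a symbol had more than 1 ID, the one with most counts was taken.

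Fold changes were centred on the median tested gene with at least 50 mean counts, a factor of 1.22 in both comparisons, and tested with the standard error implied by the deposited p. Genes whose p gave none took the median of 101 neighbours in mean count. Recovery and the centred test were run on simulated data made with the annotated lengths and the normal errors that they assume. Such data cannot check the use of the nearest fitting length, or whether the deposited p-values came from a normal test. Python 3.11.15, numpy 2.4.6, pandas 2.3.3, scipy 1.17.1 and matplotlib 3.10.9 were used. Genes that are no members were named by rule: pathway genes with a 2-fold called change or in a list with at most 5 called, genes within 200 kb of a member pair, and the 5 nearest in pattern. One gene that this rule names is not reported here. The members and lists were chosen with earlier results of these data known. Alternatives of scaling, filter, added count, standard error and threshold were tried. The deposited tables of called genes alone repeat the full ones and were not used.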

Additional observations from a re-analysis of the deposited data

How the results depend on the processing

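IGFBP2, IGFBP3, IGFBP5 and IGFBP7 were called higher after H2O2 under every scaling, filter, error and threshold tried. In the knockdown, the count of members other than IGFBP2 called lower was 0 after centring, 4 as deposited, 3 when scaled by total counts and 2 when scaled by total counts without mitochondrial genes. It was 2 when centred on genes with at least 500 mean counts, and 2 once the fold changes were corrected for gene span, an alternative chosen after seeing the data. The knockdown change of IGF2R reversed to -0.21 as deposited, -0.0817 by total counts and -0.00844 without mitochondrial genes, and that of IGFBP7 reversed to 0.0525 with the span correction. The cause was not tested. Of 158 recomputed changes of single members, these 4 changed sign. Another 15 came to be called, among them IGF1R and IGF2R after H2O2 as deposited. In the setting as deposited, a call rests on the authors' test alone. The centred test's call of IGF1R in the knockdown was also lost without mitochondrial genes (adjusted p = 0.177) and when centred on genes with at least 500 mean counts (adjusted p = 0.114). No paired analysis was possible because the tables hold 1 value per group, and for the same reason no library could be left out. Depth of single libraries is unknown, and IGFBP1, IGF2 and IGFBP4 had too few reads to show differences of moderate size.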
